A study of Rattus norvegicus with 15 samples.

Results

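The comparison of 10 µM flutamide with its solvent in rat hepatocytes kept in perfused microfluidic biochips is described here, gene by gene and by gene group, within each of 2 runs and over both. It takes in 11 of the 15 arrays of the study, 6 from biochips given flutamide at 10 µM and 5 from biochips given DMSO alone. The arrays were chosen by their labelled treatment. The other 4 arrays, from biochips given 100 µM, entered the fit to help estimate the spread between arrays. All groups shared freshly isolated primary rat hepatocytes, a seeding medium with serum and insulin, 24 h of adhesion and then 24 h of exposure under perfusion at 25 µl/min and 32 °C. The labels give neither the age, sex, strain nor number of the animals. No label says whether biochips held cells of separate animals, so a p-value here reflects variation among these biochips, which may be technical.

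The titles number the biochips 10 to 16 and 20 to 27. These blocks of numbers are called run 1 and run 2 here, a grouping the labels leave unexplained. Run 1 held 2 DMSO and 3 flutamide arrays, biochips 10 and 11 against 12, 13 and 14. Run 2 held 3 and 3, biochips 20, 21 and 22 against 23, 24 and 25.

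Flutamide is a nonsteroidal antiandrogen drug, and its clinical use is limited by liver injury. Hepatocytes take it up and oxidise it through cytochrome P450 enzymes, chiefly of the CYP1A family, and the drug is also known as a ligand of the aryl hydrocarbon receptor (AhR). Hepatocytes carry the liver's work of drug metabolism, bile acid and lipid handling, amino acid breakdown and the secretion of plasma proteins. Much of this falls off when the cells are cultured.

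Every value is an RMA log2 expression level as deposited, so a difference of 1 is a factor of 2. In all, 14506 genes were measured, 1 probe set for each. Pairs of arrays correlated at 0.955 to 0.994 over these genes. The exception within the comparison was biochip 23, a flutamide array of run 2. Its median correlation with the other arrays was 0.962, against 0.978 to 0.990 for the rest, and its array quality weight was 0.205, where a typical array has 1. It held the highest or the lowest of the 15 values for 5262 genes (36.3%), against 7.62% to 24.4% for each of the other arrays. Results are therefore given with and without it.

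The hepatocyte label was checked against marker genes. All 18 measured hepatocyte markers lay above the middle of the range of gene levels, and 11 of 18 lay above the 90th percentile, with albumin (Alb) at 12.88, 12.93, 12.66, 12.83 and 12.96 log2 units on the DMSO arrays and 12.89 to 13.01 (median 12.96) on the flutamide arrays. Of 17 Kupffer cell and macrophage markers 1 lay above the 90th percentile, and none of the 18 stellate cell or 15 endothelial markers did. The mean level of the Kupffer and macrophage list ran from 5.56 to 6.47 on the DMSO arrays and from 5.34 to 5.86 on 5 flutamide arrays, while biochip 23 stood at 6.99, and 13 of its 17 genes had their highest value of the 15 arrays there. The same array had the highest mean of the 11 for the endothelial list (5.27), the stellate list (5.25) and the hepatocyte list (10.7). No marker level is 0 on this scale, and no detection value was used. In such bulk samples, fewer cells of a type and less RNA per cell cannot be told apart.

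**Figure D1:**
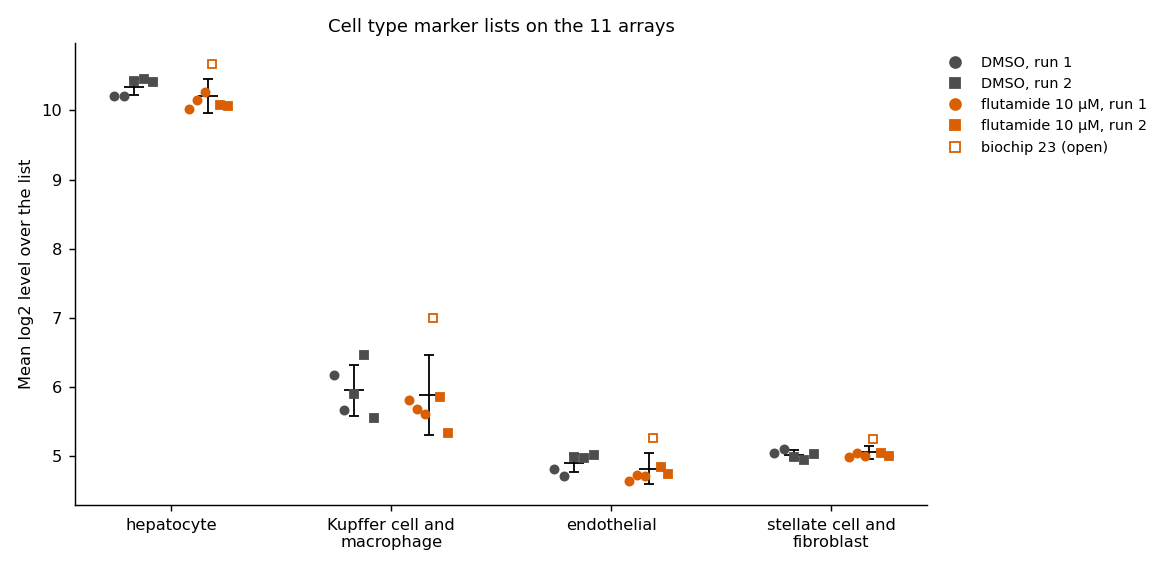
Mean log2 level over each of 4 marker lists on the 11 arrays, each point 1 array, with the group mean and SD in black. The open square, biochip 23, lies above every other array in all 4 lists, at 6.99 in the Kupffer and macrophage list, where the other 5 flutamide arrays lie between 5.34 and 5.86.

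No gene was called at 10 µM over both runs. In limma, with the run as a term and Benjamini-Hochberg adjustment over 14506 genes, 0 genes (0%) passed an adjusted p of 0.05, and the lowest adjusted p was 0.0833. At an unadjusted p under 0.05 there were 1109 genes, 7.65% of those tested, of which 555 (3.83%) were higher and 554 (3.82%) lower with flutamide. The median half-width of the 95% interval of a difference was 0.24 log2 units, a factor of 1.18, and 24 genes differed by more than 1 log2 unit, 8 higher and 16 lower. Without biochip 23 the called count was again 0, with 649 genes higher (4.47%) and 583 lower (4.02%) at an unadjusted p under 0.05 and a lowest adjusted p of 0.062. Of the 1109 genes, 764 (68.9%) passed that unadjusted threshold in the same direction without biochip 23, which is 62.0% of the 1232 found then. Since nothing passed the adjusted test, the single genes below are described by their levels, and "higher" and "lower" are the direction of a difference, not a call. All p-values are two-sided and come from limma.

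The genes that separated the groups with least spread were led by Creb5, Fbxo3 and Pop1, which shared the lowest adjusted p of 0.0833. Of the 8 genes of lowest p in each direction with the same sign in both runs, 12 of 16 had no overlap between the 6 flutamide and the 5 DMSO arrays. The same held for 92 of all genes (0.634%), 60 higher (0.414%) and 32 lower (0.221%), and without biochip 23 for 131 higher (0.903%) and 83 lower (0.572%). Within each run and in the same direction in both, 228 genes were apart (1.57%). These 16 genes were picked for their low p, so their separation describes them and is no further evidence.

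Creb5, a bZIP transcription factor of the CREB and ATF family, read 6.79, 6.51, 6.14, 6.47 and 6.40 on the DMSO arrays of biochips 10, 11, 20, 21 and 22, and 6.81 to 7.40 (median 7.26) on the 6 flutamide arrays. The lowest flutamide value, from biochip 23, lay just above the highest DMSO value, from biochip 10. The difference was 0.69 ± 0.10 (SE; 1.62-fold, adjusted p = 0.0833), with 0.67 in run 1, 0.70 in run 2 and 0.75 without biochip 23 (adjusted p = 0.062). With array quality weights, or after a renewed quantile normalization, Creb5 passed as the sole gene called, at 0.72 (adjusted p = 0.0156) and 0.71 (adjusted p = 0.0456).

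Fbxo3, the substrate-recognition subunit of an SCF ubiquitin ligase, read 8.83, 8.60, 8.62, 8.70 and 8.59 with DMSO and 9.07 to 9.47 (median 9.23) with flutamide. The groups were apart, and the difference was larger in run 2 (0.72) than in run 1 (0.42), a gap that did not pass the test of the difference between runs (adjusted p = 0.562). The pooled difference was 0.59 ± 0.09 (adjusted p = 0.0833) and 0.57 without biochip 23.

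Apom encodes the apolipoprotein of high-density lipoprotein that carries sphingosine-1-phosphate. It read 7.68, 7.33, 7.13, 7.35 and 7.61 with DMSO and 7.74 to 8.10 (median 7.99) with flutamide, a difference of 0.54 ± 0.11 (adjusted p = 0.285), with 0.40 in run 1 and 0.65 in run 2. All 6 flutamide arrays lay above all 5 DMSO arrays. S1pr2, a receptor for sphingosine-1-phosphate, lay lower: 6.12, 5.40, 6.38, 5.82 and 6.32 with DMSO against 5.09 to 5.50 (median 5.32), where the DMSO value of biochip 11 lay inside the flutamide range. Its difference was -0.70 ± 0.15 (adjusted p = 0.285), -0.36 in run 1 and -0.97 in run 2. It passed at -0.88 (adjusted p = 0.0482) when biochip 11 was left out. Biochip 11 is the DMSO array nearest the flutamide values, so leaving it out widens the difference and is no further evidence.

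Several other genes were higher on every or nearly every flutamide array. Gdf15, a stress-induced cytokine of the TGF-beta family, read 7.94, 7.66, 7.78, 7.30 and 7.58 with DMSO and 8.01 to 8.62 (median 8.15) with flutamide, with no overlap, and differed by 0.62 ± 0.13 (adjusted p = 0.285). Lrif1, a nuclear receptor-interacting factor found at heterochromatin, read 8.10, 8.21, 7.46, 7.39 and 7.27 against 8.28 to 8.67 (median 8.35). Its flutamide values were alike in both runs and the DMSO values were not, so that the difference was 0.22 in run 1 and 1.06 in run 2, and 0.68 ± 0.14 pooled. Fpgt, an enzyme of fucose salvage, was also apart, at 6.20, 5.96, 6.03, 6.33 and 6.03 against 6.40 to 7.06 (median 6.61), with 0.46 in run 1 and 0.64 in run 2. Ampd1, an AMP deaminase, had the larger difference of 1.14 ± 0.24 (2.2-fold) and was alike in the runs, 0.98 and 1.26, with DMSO values of 5.59, 5.97, 4.76, 5.70 and 4.63 and flutamide values of 5.82 to 7.11 (median 6.56). Here the flutamide array of lowest value, biochip 24, lay within the DMSO range.

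Serpina6, which encodes corticosteroid-binding globulin, the plasma carrier of glucocorticoids, had the largest difference among the 16. The DMSO arrays read 7.20, 8.02, 6.97, 7.21 and 7.30 and the flutamide arrays 7.99 to 9.42 (median 8.42). A single DMSO array, biochip 11, reached the lower flutamide values, and the other 4 lay below them all. The difference was 1.25 ± 0.27 (2.38-fold, adjusted p = 0.285), 0.63 in run 1 and 1.72 in run 2, and 1.38 without biochip 23.

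Among the genes that were lower, Pop1, a protein subunit of RNase P and RNase MRP, read 5.65, 5.56, 5.95, 5.44 and 5.67 with DMSO and 4.78 to 5.25 (median 5.03) with flutamide. The groups did not overlap, and the difference was -0.63 ± 0.10 (adjusted p = 0.0833), -0.47 in run 1, -0.75 in run 2 and -0.57 without biochip 23. Other subunits did not follow as a group. Of 9 measured RNase P and MRP subunits 6 were higher and 3 lower, with Pop7 at -0.55 ± 0.24 and Rpp25 at 0.50 ± 0.16 on the same scale of differences. Exosc5, a core subunit of the RNA exosome, was also lower on all flutamide arrays, 6.87, 6.89, 7.04, 6.84 and 6.92 against 6.37 to 6.71 (median 6.55), with a small and even difference of -0.36 ± 0.07.

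Tlr6, a Toll-like receptor for bacterial lipopeptides, had the same difference in both runs, -0.93 and -0.91. The DMSO arrays read 6.43, 6.33, 6.56, 6.73 and 5.71 and the flutamide arrays 5.13 to 5.65 (median 5.52), so the groups were apart by the narrow gap between DMSO biochip 22 and flutamide biochip 23. The pooled difference was -0.92 ± 0.17 (1.89-fold, adjusted p = 0.279), and it passed at -1.08 (adjusted p = 0.0225) when biochip 22 was left out. Biochip 22 is the DMSO array nearest the flutamide values, so here too the omission widens the difference and is no further evidence. Dhrs3, which reduces retinal to retinol, was as even between runs: 6.38, 6.38, 6.42, 6.35 and 6.77 with DMSO against 5.57 to 6.15 (median 5.86), a difference of -0.60 ± 0.13, with -0.59 in run 1 and -0.61 in run 2.

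Slco1b2, the rat liver transporter that takes bile acids and many drugs into hepatocytes, read 5.77, 5.63, 5.27, 5.997 and 5.51 with DMSO and 4.83 to 5.19 (median 5.03) with flutamide. All 6 flutamide arrays were lower than all 5 DMSO arrays, with a difference of -0.61 ± 0.15 (adjusted p = 0.317), with -0.69 in run 1 and -0.56 in run 2. Qprt, which turns quinolinate into a precursor of NAD, read 5.47, 5.89, 6.18, 5.94 and 6.53 against 5.16 to 5.47 (median 5.29), with 1 DMSO array (biochip 10) at the level of the highest flutamide array. Its difference was -0.69 ± 0.15. Atp5mc1, the c subunit of mitochondrial ATP synthase, differed by -0.44 ± 0.09, with 9.66, 9.74, 9.95, 9.998 and 10.03 against 9.28 to 9.59 (median 9.45) and no overlap.

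With the fitted run effect removed, the arrays of the groups were apart for 144 genes (0.993%), 96 higher (0.662%) and 48 lower (0.331%). The widest differences among these included those of Aknad1, Ddit3, Mospd4 and Zc3h6 upward and of Hdhd3, Ift22, Agpat2, Lgals2 and Baat downward. Aknad1 had the widest rise, 1.51, but 0.07 in run 1 against 2.60 in run 2, where the DMSO arrays were the lowest of all. Ddit3, the stress transcription factor CHOP, read 7.93, 8.09, 8.87, 8.81 and 7.47 with DMSO and 8.14 to 10.52 (median 9.21) with flutamide, and the groups overlapped as measured. Its difference was 1.14 ± 0.37 (2.21-fold, adjusted p = 0.447), 0.61 in run 1 and 1.60 in run 2, and 0.94 without biochip 23, which held the highest value. Agpat2, which makes phosphatidic acid on the way to triglycerides, read 7.36, 7.09, 8.27, 8.49 and 7.26 against 6.48 to 7.03 (median 6.87), with no overlap. Its difference of -0.88 ± 0.23 was -0.37 in run 1 and -1.27 in run 2. Baat, the enzyme that joins bile acids to taurine or glycine, read 6.23, 6.20, 7.40, 7.05 and 7.45 against 5.75 to 6.23 (median 6.01), with the DMSO arrays of run 2 above all others. Its difference of -0.84 ± 0.21 was -0.29 in run 1 and -1.28 in run 2.

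**Figure D2:**
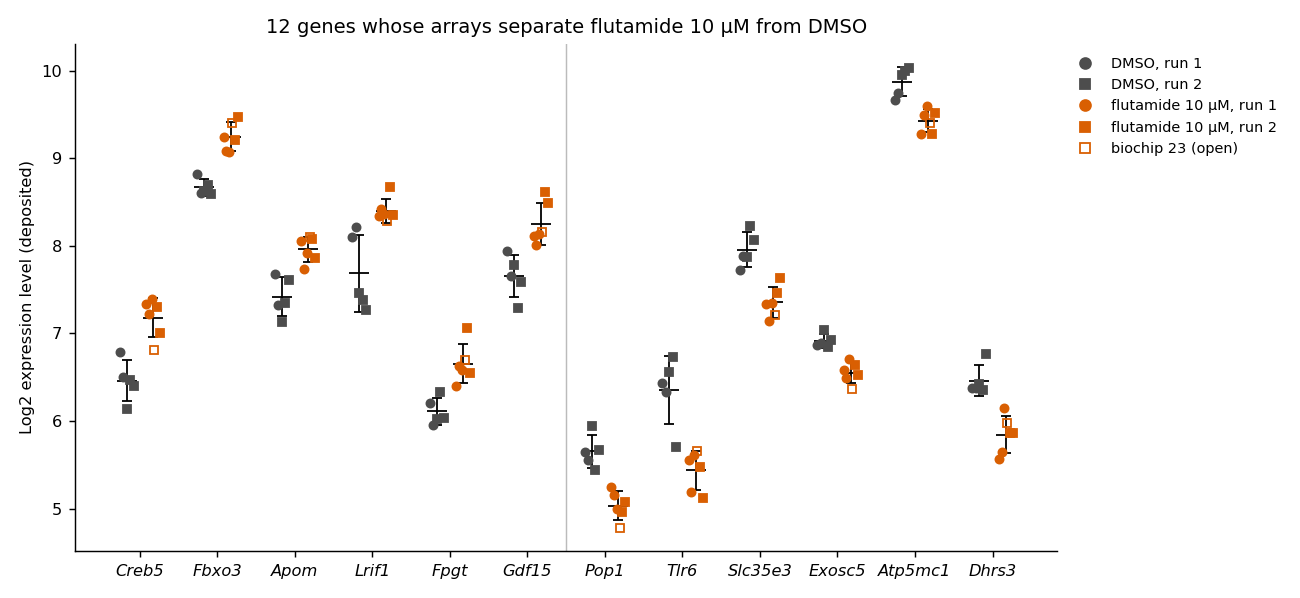
Deposited log2 levels of 12 genes on the 11 arrays, each point 1 array, with the mean and SD of each group in black. The 6 genes on the left are higher and the 6 on the right lower on every flutamide array than on any DMSO array, and the genes were picked for this separation.

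Promoters of 4 of these genes are shown because the genes fall in the groups described next, a CREB family factor, an apolipoprotein, and the uptake and conjugation of bile acids. They run from 250 bases before to 50 after the start site in RefSeq assembly GRCr8: Creb5 at chr4:83723975-83724274 (plus strand), Apom at chr20:3695368-3695667 (plus), Slco1b2 at chr4:176282334-176282633 (plus) and Baat at chr5:68656088-68656387 (minus). Capitals mark matches, on either strand, to 4 motifs. They are the TATA box letters TATAAA, the CCAAT box letters CCAAT, the HNF1 letters GTTAAT and the HNF4 letters CAAAGTCCA.
Creb5: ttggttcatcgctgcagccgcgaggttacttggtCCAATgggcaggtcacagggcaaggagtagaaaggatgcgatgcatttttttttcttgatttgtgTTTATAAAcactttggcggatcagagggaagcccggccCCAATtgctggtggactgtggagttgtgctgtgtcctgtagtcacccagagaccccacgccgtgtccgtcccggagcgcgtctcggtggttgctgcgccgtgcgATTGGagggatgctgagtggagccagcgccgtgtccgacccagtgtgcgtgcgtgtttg
Apom: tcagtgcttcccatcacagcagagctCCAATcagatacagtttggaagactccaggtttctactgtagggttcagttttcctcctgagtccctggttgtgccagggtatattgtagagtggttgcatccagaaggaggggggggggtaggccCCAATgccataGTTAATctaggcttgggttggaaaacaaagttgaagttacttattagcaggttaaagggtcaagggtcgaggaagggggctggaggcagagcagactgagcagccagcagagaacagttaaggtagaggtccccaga
Slco1b2: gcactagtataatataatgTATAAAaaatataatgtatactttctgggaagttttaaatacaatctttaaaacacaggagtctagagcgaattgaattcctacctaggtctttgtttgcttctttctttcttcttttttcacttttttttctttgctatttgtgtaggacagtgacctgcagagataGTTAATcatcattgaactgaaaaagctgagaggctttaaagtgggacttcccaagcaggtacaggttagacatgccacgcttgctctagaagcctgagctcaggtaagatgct
Baat: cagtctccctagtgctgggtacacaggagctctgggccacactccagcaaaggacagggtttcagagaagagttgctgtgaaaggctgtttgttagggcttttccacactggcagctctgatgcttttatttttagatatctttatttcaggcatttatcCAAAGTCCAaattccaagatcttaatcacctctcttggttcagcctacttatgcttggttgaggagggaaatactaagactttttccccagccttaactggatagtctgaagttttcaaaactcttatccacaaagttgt

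GTTAAT lay 87 bases before the start in Apom and 63 before it in Slco1b2, and 7.45% of all 33469 RefSeq promoters of this length hold it. CAAAGTCCA lay 90 bases before the start in Baat, and 0.391% of promoters hold it. Creb5 had 2 overlapping TATAAA matches (14.2% of promoters) and 3 CCAAT matches (37.5%), and none of the 4 held TGACGTCA, the full cAMP response element (1.83%). A match is a description of letters and no evidence of binding, and Fbxo3, Pop1, Serpina6 and Fetub have no entry in the table.

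Gene groups were compared with all 14506 genes, of which 7126 (49.1%) were higher and 7380 (50.9%) lower with flutamide, with a median difference of -0.0027 log2 units (-0.0044 in run 1, 0.017 in run 2 and -0.010 without biochip 23). No member of any list passed the adjusted test, so the counts below are of genes at an unadjusted p under 0.05, against the 3.83% higher and 3.82% lower of all genes. Members of a list share arrays and often regulation, and the lists are described without a test. Some genes are in more than 1 list, with 1328 measured entries for 1223 genes, so the lists are not separate observations.

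Lipid oxidation and bile acid handling were lower as groups. Of 50 measured genes of mitochondrial and peroxisomal fatty acid oxidation, 39 were lower and 11 higher, 13 were lower and 0 higher at an unadjusted p under 0.05, and the median difference was -0.20, with -0.052 in run 1, -0.37 in run 2 and -0.20 without biochip 23. In run 1 the counts were near even, 29 of 50 lower, and in run 2 42 of 50 were. Cd36, a fatty acid transporter at the cell surface, had the widest difference of any gene in the list at -1.65 ± 0.58 (3.15-fold, adjusted p = 0.495), but -0.38 in run 1 against -2.55 in run 2, and its other probe set gave -1.01. It read 6.59, 7.14, 8.92, 8.30 and 8.29 with DMSO and 4.82 to 7.14 (median 6.34) with flutamide, and the DMSO arrays of run 2 lay above all other arrays.

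Hsd17b4, the peroxisomal bifunctional enzyme, read 9.73, 9.91, 10.55, 10.60 and 10.33 with DMSO and 9.002 to 9.86 (median 9.55) with flutamide, a difference of -0.73 ± 0.20, again small in run 1 (-0.17) and wide in run 2 (-1.18). Eci1, an isomerase for unsaturated fatty acids, was more even, -0.28 and -0.57, with 9.39, 9.47, 10.20, 10.22 and 9.62 against 9.11 to 9.70 (median 9.26). Here biochip 23 was the highest flutamide array, and the difference went from -0.45 ± 0.13 to -0.50 without it. Cyp4a3, a fatty acid omega-hydroxylase, differed by -0.44 ± 0.17, with -0.30 in run 1 and -0.53 in run 2. Lipogenesis (19 of 27 lower, median -0.10) and cholesterol synthesis and uptake (15 of 25 lower, median -0.033) lay nearer to all genes, with 1 gene each at an unadjusted p under 0.05. The cholesterol list turned, without biochip 23, to 10 of 25 lower (median 0.033), while lipogenesis had 18 of 27 lower (median -0.12).

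For bile acid synthesis and transport 23 of 29 genes were lower and 9 were so at an unadjusted p under 0.05, against 0 higher, with a median of -0.25 (-0.069 in run 1, -0.28 in run 2, -0.27 without biochip 23). Beside Slco1b2 and Baat, Nr1h4, the bile acid receptor FXR, read 6.42, 6.74, 6.49, 6.71 and 6.21 with DMSO and 5.53 to 6.72 (median 6.09) with flutamide, a difference of -0.44 ± 0.18 with overlapping groups. Cyp7a1, the rate-limiting enzyme of bile acid synthesis, was dim on all arrays. It read 3.49, 3.57, 3.41, 3.29 and 3.57 with DMSO and 3.03 to 4.65 (median 3.27) with flutamide and showed no steady direction, 0.07 ± 0.24 with all arrays and -0.19 without biochip 23.

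Amino acid breakdown was lower in both runs for the aromatic pathways. The tyrosine and phenylalanine breakdown list holds the cofactor genes Qdpr and Gch1 beside breakdown enzymes. All 6 measured genes were lower in run 1 and in run 2, as were 2947 of all genes (20.3%). Hpd was near 0 in run 1 (-0.0095). The list median was -0.25 (-0.24 in run 1, -0.31 in run 2, -0.39 without biochip 23). Hgd, homogentisate dioxygenase, read 6.61, 6.05, 8.15, 7.65 and 7.97 with DMSO and 5.61 to 6.39 (median 6.30) with flutamide, a difference of -1.10 ± 0.26 (2.14-fold, adjusted p = 0.317). It was -0.26 in run 1 and -1.76 in run 2, where the DMSO arrays were the highest of all. Fah, the last enzyme of the pathway, read 6.69, 7.08, 7.61, 7.89 and 7.36 against 6.05 to 6.90 (median 6.60) and differed by -0.73 ± 0.18, with -0.32 and -1.05 in the runs.

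In the tryptophan and NAD pathway 14 of 16 genes were lower, 3 at an unadjusted p under 0.05, with a median of -0.19 (-0.14 in run 1, -0.25 in run 2, -0.17 without biochip 23). These were Qprt, Kynu and Haao, all on the route from kynurenine to NAD. Kynu, kynureninase, read 6.64, 6.85, 7.93, 7.27 and 7.89 with DMSO and 5.96 to 6.95 (median 6.40) with flutamide. It differed by -0.88 ± 0.26, with -0.28 in run 1 and -1.35 in run 2. Haao, which makes the precursor of quinolinate, differed by -0.73 ± 0.30 (-0.21 in run 1 and -1.11 in run 2), and by -0.48 without biochip 23, its lowest array. By contrast the urea cycle and nitrogen handling list was split, 10 higher and 7 lower of 17 (median 0.0046), or 6 and 11 without biochip 23 (median -0.015). In gluconeogenesis and glycogen 18 of 23 were lower (median -0.19, and -0.22 without biochip 23), 3 at an unadjusted p under 0.05, among them the liver glycogen synthase Gys2 (-0.48 ± 0.21).

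The transcription factors that hold hepatocyte identity were lower as a group in both runs. Of 27 measured, 17 were lower and 10 higher, 5 and 0 of them at an unadjusted p under 0.05, and the median was -0.12 (-0.17 in run 1, -0.12 in run 2, -0.19 without biochip 23). Hnf4a, a nuclear receptor that drives many liver genes, read 7.82, 8.08, 8.92, 8.81 and 8.56 with DMSO and 7.43 to 8.25 (median 7.81) with flutamide. Its difference was -0.62 ± 0.20, with -1.14 in run 2 and 0.02 in run 1. Hnf4g, its close relative, was alike in both, -0.56 and -0.64, and pooled -0.61 ± 0.17 (adjusted p = 0.375). Nr1i2, the drug sensor PXR, read 6.19, 6.24, 6.27, 6.17 and 5.96 against 5.52 to 6.01 (median 5.95) and differed by -0.33 ± 0.12, with -0.25 and -0.38 in the runs. In the hepatocyte marker list 10 of 18 were lower with a median of -0.058, and 11 of 18 with a median of -0.16 without biochip 23, the array of highest mean for this list.

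Plasma carrier genes leaned the other way. Of 38 carrier and protease inhibitor genes 27 were higher and 11 lower, 10 and 2 at an unadjusted p under 0.05, with a median of 0.11 (0.050 in run 1, 0.18 in run 2). Without biochip 23 the counts were 25 and 13, the median was 0.060 and the median in run 2 was 0.027. Fetub, the liver-made protease inhibitor fetuin-B, read 10.89, 10.81, 11.03, 10.98 and 11.18 with DMSO and 11.04 to 11.49 (median 11.23) with flutamide, a difference of 0.28 ± 0.06 (adjusted p = 0.285) with 0.23 and 0.32 in the runs. Vtn, vitronectin, was apart on all arrays, 10.70, 10.58, 10.42, 10.56 and 10.60 against 10.77 to 11.03 (median 10.86), by 0.31 ± 0.07. Ttr, the thyroxine and retinol carrier transthyretin, differed by 0.41 ± 0.12, mostly in run 2 (0.64, against 0.11 in run 1), and Alb by 0.10 ± 0.06.

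Apolipoprotein and lipoprotein genes divided, 14 higher and 8 lower of 22, with 7 higher and 1 lower at an unadjusted p under 0.05, and 5 higher and 3 lower without biochip 23. Members ran in both directions. Apoc3, an inhibitor of lipoprotein lipase, read 11.67, 11.56, 10.43, 10.63 and 11.003 with DMSO and 11.56 to 12.32 (median 11.79) with flutamide, and Apoa2, of high-density lipoprotein, 10.83, 10.45, 9.60, 9.72 and 10.09 and 10.33 to 11.60 (median 11.01). For both, the DMSO arrays of run 2 were the lowest of all, and the difference was 0.03 and 0.17 in run 1 against 1.37 and 1.30 in run 2. Apob, the large structural protein of very-low-density lipoprotein, was the 1 gene lower at that threshold with all arrays, at -0.56 ± 0.19 (-0.21 in run 1 and -0.83 in run 2).

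The acute phase list, 16 of 23 higher with a median of 0.11, came to a median of 0.0049 without biochip 23, which had the highest mean level over this list (11.1, against 10.4 to 10.5 on the other flutamide arrays). In complement and coagulation 27 of 39 were lower (median -0.099), 5 at an unadjusted p under 0.05. Without biochip 23 there were 29 of 39 lower (median -0.20), 9 at that threshold, and the run 2 median went from -0.0049 to -0.24. Plg, plasminogen, was on the higher side at 0.38 ± 0.08 (adjusted p = 0.285) and F3, tissue factor, on the lower at -0.70 ± 0.23.

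**Figure D3:**
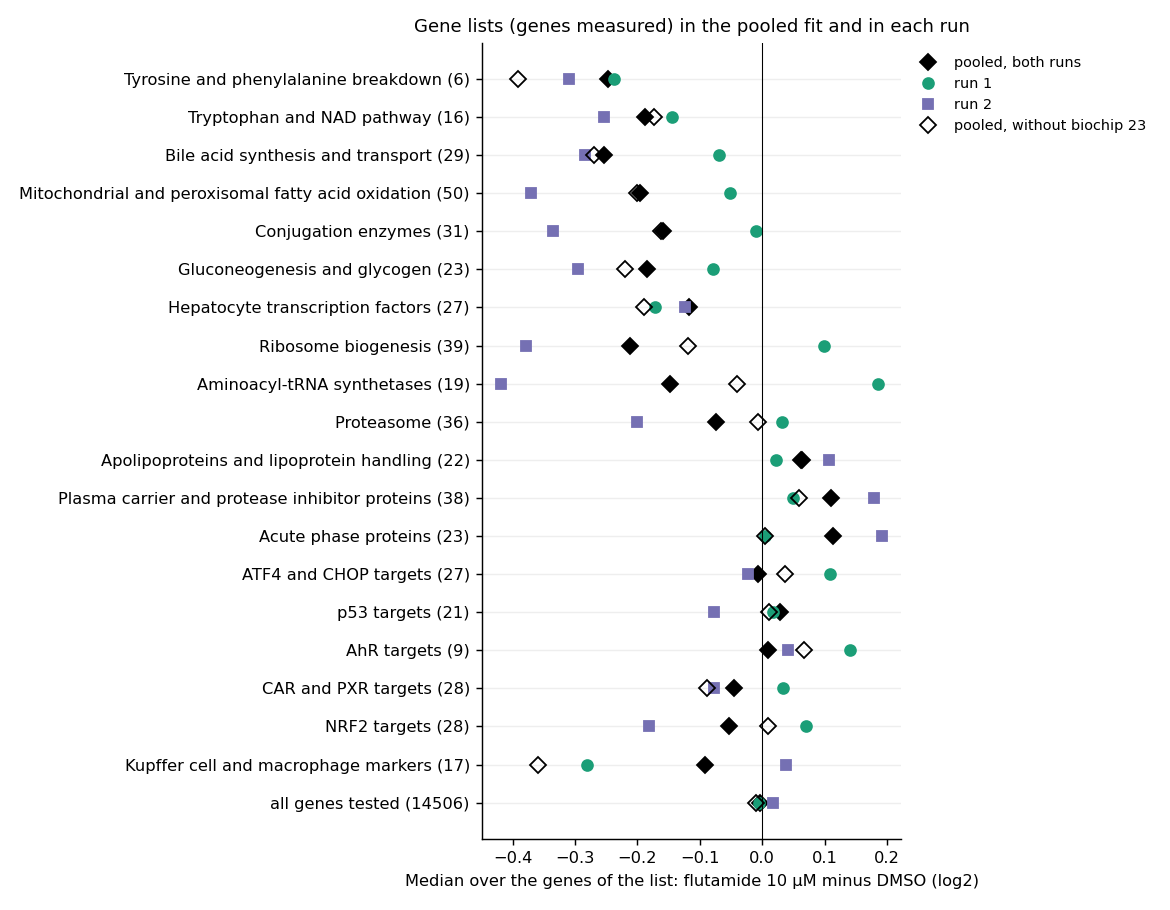
Median log2 difference, flutamide 10 µM minus DMSO, over the measured genes of 19 lists and of all genes tested, with the number of genes in parentheses; symbols give the pooled fit, each run and the pooled fit without biochip 23. Several metabolic lists, such as fatty acid oxidation, lie left of 0 in both runs. Ribosome biogenesis and the aminoacyl-tRNA synthetases lie right of 0 in run 1 and left in run 2. Other metabolic lists turned likewise, with run 1 and run 2 medians of 0.035 and -0.22 for lipogenesis and 0.085 and -0.21 for the citric acid cycle.

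The AhR list, which holds the receptor Ahr and its partner Arnt beside targets, showed no shared direction at 10 µM. Of 9 measured, 5 were higher and 4 lower, with 0 in either direction at an unadjusted p under 0.05 and a median of 0.0089. Without biochip 23 the median was 0.068, with 1 gene lower at that threshold. Cyp1a1, the classical AhR target, was already high with DMSO, 11.05, 10.66, 11.16, 11.03 and 11.19, and read 8.81 to 11.47 (median 10.97) with flutamide. The lowest value was that of biochip 23, and the next lowest was 10.7. The difference was -0.30 ± 0.39 (adjusted p = 0.925) with all arrays and 0.15 without biochip 23. Cyp1a2, which hydroxylates flutamide, read 10.17, 10.33, 9.74, 8.96 and 9.61 against 9.34 to 10.96 (median 10.23), 0.36 ± 0.21, and Cyp1b1 -0.36 ± 0.24. Nqo1, a quinone reductase under AhR and NRF2, also had its lowest value on biochip 23, with 12.14, 11.86, 11.74, 11.92 and 11.87 against 10.78 to 12.22 (median 12.05), and a difference of -0.06 ± 0.19 that became 0.16 without it.

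The drug sensors CAR and PXR act on the Cyp2b and Cyp3a genes. Their list of 28 measured genes, which holds the sensors (Nr1i3 and Nr1i2) and their partner Rxra beside targets, was split. It had 13 higher and 15 lower (median -0.046), or 10 and 18 without biochip 23 (median -0.088). Cyp3a2 read 7.31, 8.43, 7.29, 8.17 and 8.39 with DMSO and 7.73 to 9.56 (median 8.65) with flutamide, 0.85 ± 0.29, with 0.20 in run 1 and 1.37 in run 2. Its close relative Cyp3a23-3a1 differed by -0.05 ± 0.14 (-0.17 without biochip 23), and probe sets of such near copies can share signal. Cyp2b1 spread widely in both groups, 7.30, 6.05, 8.29, 7.19 and 8.42 against 4.61 to 7.96 (median 6.25), and its difference of -1.24 ± 0.65 had an unadjusted p of 0.0763.

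Ces2e, a carboxylesterase of the same list, was among the 16 genes of lowest p. It read 5.63, 5.58, 5.89, 6.18 and 6.11 with DMSO and 5.84 to 7.05 (median 6.45) with flutamide, 0.65 ± 0.14, with no overlap within run 1 or within run 2 but with an overlap across them. Conjugation enzymes were lower, 25 of 31, 8 at an unadjusted p under 0.05 against 1 higher, with a median of -0.16 (-0.16 without biochip 23), with -0.33 in run 2 and -0.0093 in run 1. The abundant glucuronosyltransferase Ugt2b1 differed by -0.62 ± 0.24 (-0.12 in run 1 and -1.02 in run 2). The membrane glutathione transferase Mgst1 differed by -0.26 ± 0.09 (-0.088 and -0.39).

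Lists of stress genes leaned little with all arrays, and some leaned differently without biochip 23. The ATF4 and CHOP list, which holds Atf4 and Ddit3 themselves beside targets, had 13 higher and 14 lower of 27 (median -0.0071). Without biochip 23 it had 18 higher and 9 lower (median 0.037). Ddit3 and Gdf15 were higher and the serine synthesis enzyme Phgdh lower. Phgdh read 6.35, 6.62, 7.10, 6.89 and 6.78 with DMSO and 6.21 to 6.58 (median 6.26) with flutamide, -0.39 ± 0.09 (adjusted p = 0.287). Atf3, a stress-induced bZIP factor, differed by 0.20 ± 0.19 (0.11 without biochip 23) and Atf5 by -0.58 ± 0.17. For Atf5 the difference was -0.022 in run 1 and -1.01 in run 2. Among 25 ER chaperones and unfolded protein response genes 13 were higher and 12 lower (median 0.019), or 11 and 14 without biochip 23 (median -0.0064). Hspa5, the ER chaperone BiP, read 12.11, 11.96, 12.58, 12.57 and 12.37 against 12.27 to 12.96 (median 12.35), 0.18 ± 0.10 (0.11 without biochip 23).

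In the NRF2 list of 28 genes, which holds the regulators Nfe2l2 and Keap1 beside targets, 11 were higher and 17 lower. The median was -0.053, with 0.070 in run 1 and -0.18 in run 2. Without biochip 23, 15 were higher and 13 lower (median 0.0095). Srxn1, sulfiredoxin, which restores oxidised peroxiredoxins, was higher on all flutamide arrays, 7.75, 7.57, 7.30, 7.61 and 7.32 against 7.76 to 8.25 (median 7.95), by 0.47 ± 0.11 (adjusted p = 0.317). Hmox1, heme oxygenase 1, ran from 7.93 to 9.57 with DMSO and from 7.64 to 10.7 with flutamide, its highest value on biochip 23, and its difference of 0.23 ± 0.46 was -0.09 without that array. Akr7a3, an aldehyde reductase, differed by -1.11 ± 0.36 (-0.27 in run 1 and -1.78 in run 2), and by -0.71 without biochip 23, its lowest array.

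Targets of p53 were 12 higher and 9 lower of 21 (median 0.028), or 11 and 10 without biochip 23 (median 0.011). Cdkn1a, the cell cycle inhibitor p21, read 10.41, 10.13, 9.66, 9.99 and 9.32 with DMSO and 9.59 to 10.64 (median 10.43) with flutamide, 0.37 ± 0.16 with 0.29 in run 1 and 0.44 in run 2, whereas the pro-apoptotic Bax differed by -0.34 ± 0.12, and by -0.21 without biochip 23, its lowest flutamide array. Bcl2l11, the pro-apoptotic BH3-only protein Bim, was higher by 0.54 ± 0.18. It belongs to the apoptosis machinery list, which was split, 14 higher and 14 lower of 28 (median -0.0021). Without biochip 23 that list had 12 higher and 16 lower (median -0.069). The orphan nuclear receptor Nr4a2 (0.81 ± 0.21, adjusted p = 0.35) and Jun (0.35 ± 0.09) were higher among 28 immediate early genes, of which 17 were higher, or 14 without biochip 23.

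Cell cycle genes were 25 higher and 12 lower of 37 (median 0.051), at low levels, or 24 and 13 without biochip 23 (median 0.063). Of 53 olfactory receptor genes, dimmer still, 34 were higher (median 0.016), or 25 without biochip 23 (median -0.0052). The cyclin Ccnb2 read 5.75, 5.81, 5.44, 5.54 and 5.25 against 5.78 to 6.26 (median 6.08), 0.45 ± 0.12, and Ccnd1 differed by -0.09 ± 0.14 (-0.19 without biochip 23). Respiratory complex I (26 of 40 lower, median -0.039) and complexes II to V (23 of 43 lower, median -0.020) had medians close to that of all genes, beside the difference in Atp5mc1 given above. Leaving out biochip 23 gave counts of 19 of 40 lower (median 0.011) and 21 of 43 lower (median 0.0084).

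Among 34 androgen, steroid and sex-biased genes 12 were higher and 22 lower (median -0.087), or 11 and 23 without biochip 23 (median -0.17). Pgr, the progesterone receptor, was dim and read 5.36, 5.18, 4.53, 4.87 and 4.77 against 5.20 to 5.60 (median 5.32), 0.38 ± 0.11. Fkbp5, a chaperone induced by steroid hormones, differed by -0.29 ± 0.23, with overlapping groups.

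Relatives of the leading genes lay in both directions. In the CREB family and cAMP list 15 were higher and 12 lower of 27 (median 0.035), or 18 and 9 without biochip 23 (median 0.038). Creb5 and the coactivator Ep300 (0.29 ± 0.09, no overlap) were on the higher side and the kinase Sik1 (-0.28 ± 0.10) on the lower. Of 34 F-box and cullin ligase subunits 19 were higher and 15 lower, with Fbxo22 at -0.54 ± 0.19, opposite to Fbxo3. In the NF-kB and inflammation list 18 of 30 were lower (median -0.053), and 23 of 30 without biochip 23 (median -0.12), among them Tlr6 and the macrophage growth factor Csf1 (-0.22 ± 0.06). The Kupffer and macrophage markers, beside these, were 11 of 17 lower with a median of -0.092, and 14 of 17 with a median of -0.36 without biochip 23. The part of that list in the inflammatory genes was not tested.

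The runs differed in sign over more genes than not. The sign of the difference was the same in both for 6248 of 14506 genes (43.1%), and across genes, which are not independent replicates, the differences of run 1 and run 2 had a Pearson r of -0.060 and a Spearman rho of -0.112. Without biochip 23 the Pearson r was 0.012. Differences were wider in run 2, with an SD over genes of 0.319 (0.306 without biochip 23) against 0.191 in run 1, and 223 genes exceeded 1 log2 unit there against 9. At an unadjusted p under 0.05 in both runs there were 52 genes with the same sign and 58 with opposite signs.

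**Figure D4:**
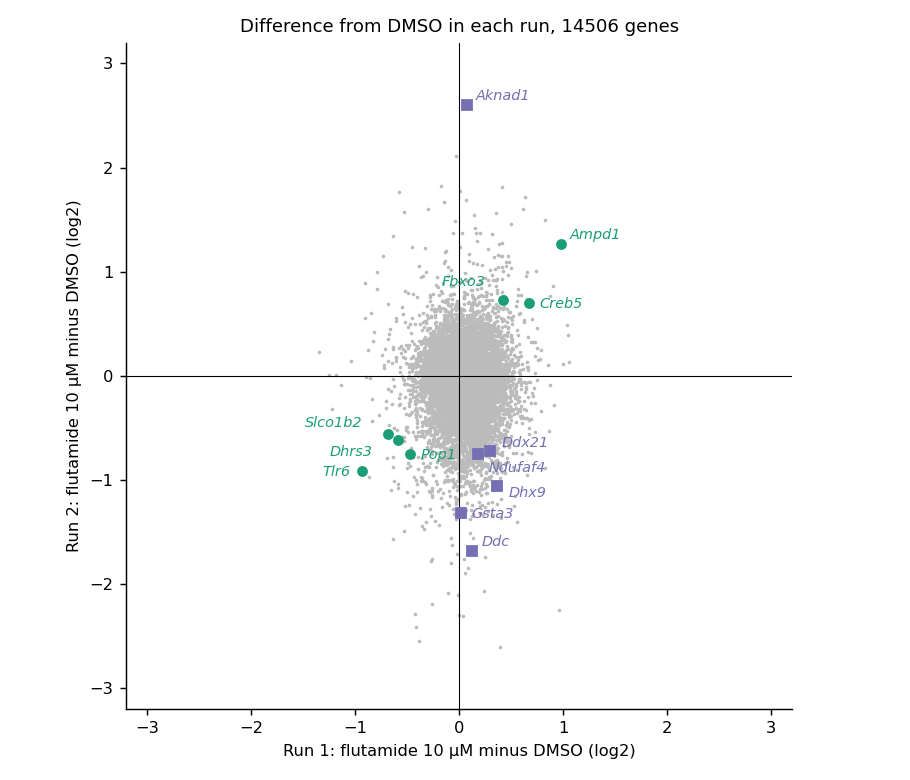
Difference of 10 µM flutamide from DMSO in run 1 (horizontal) and in run 2 (vertical), log2, each grey point 1 of 14506 genes. The cloud is taller than it is wide; green circles mark genes with like differences in both runs, such as Creb5 (0.67 and 0.70) and Tlr6 (-0.93 and -0.91), and violet squares the 6 genes whose difference differed between runs.

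Fitted alone, run 1 had no gene called (0%; 773 genes, 5.33%, at an unadjusted p under 0.05) and run 2 had 7 (0.0483%; 1693 genes, 11.7%, at that threshold). In run 2, Aknad1, a gene with an AKNA domain, rose by 2.60, and 6 genes of liver metabolism and signalling fell. They were Gsta3, a glutathione transferase (-1.32), Ddc, aromatic amino acid decarboxylase (-1.68), Hao1, the peroxisomal glycolate oxidase (-1.30), Cdc42ep2, a CDC42 effector (-1.90), Mbl2, a mannose-binding lectin of complement (-2.07), and Vnn1, the pantetheinase vanin 1 (-1.63).

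Their adjusted p in run 2 ran from 0.00691 (Aknad1, Gsta3 and Ddc) to 0.0475 (Vnn1). All 7 were among the 24 genes (0.165%) called in run 2 without biochip 23. The list was not stable to the other arrays: it held 0 genes without DMSO biochip 20 or without flutamide biochip 24, 2 without DMSO biochip 21 and 95 without flutamide biochip 25. In the model of all 15 arrays with a term for each run, 171 genes were called in run 2, 39 higher and 132 lower, and 0 in run 1.

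The difference between the runs was itself tested, and 6 genes passed (0.0414%; 10.2% at an unadjusted p under 0.05). For Aknad1 the DMSO arrays read 9.82 and 9.78 in run 1 and 7.02, 7.30 and 6.90 in run 2, and the flutamide arrays 9.87, 9.90 and 9.85 and 9.32, 9.72 and 9.99. The 3 DMSO arrays of run 2 stood apart from the other 8, and on the 100 µM arrays 15, 16, 26 and 27 the gene read 9.72, 9.95, 9.64 and 9.80. The difference between runs was 2.53 ± 0.23 (adjusted p = 0.00203), and this gene passed whichever of the 11 arrays was left out.

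Ddc was dim, at 4.05 and 4.45 and 5.77, 5.42 and 5.54 with DMSO and 4.21, 4.29 and 4.62 and 3.77, 3.89 and 4.01 with flutamide, and its difference between runs was -1.81 ± 0.22 (adjusted p = 0.0116), lost without DMSO biochip 10 (adjusted p = 0.0958). Gsta3 read 8.29 and 8.17 and 9.03, 9.12 and 9.02 with DMSO and 8.27, 8.20 and 8.27 and 7.69, 7.80 and 7.72 with flutamide, -1.33 ± 0.16 (adjusted p = 0.0116), which passed in 7 of 11 such omissions. In both genes the DMSO arrays of run 2 were the highest of all arrays and the flutamide arrays of run 2 the lowest of the 11.

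The other 3 were Dhx9, an RNA helicase (-1.43 ± 0.20, adjusted p = 0.0423), Ddx21, a helicase of ribosome synthesis (-1.02 ± 0.14, adjusted p = 0.0343) and Ndufaf4, a complex I assembly factor (-0.93 ± 0.14, adjusted p = 0.049). They passed in 3, 2 and 1 of the 11 omissions. In these genes too it was the DMSO arrays that shifted most: from run 1 to run 2 their mean moved by 1.11, 0.93 and 0.71, against -0.32, -0.10 and -0.22 for the flutamide arrays. Without any 1 array the count of genes ran from 2 to 116, the latter without flutamide biochip 25. What set the runs apart was not tested.

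**Figure D5:**
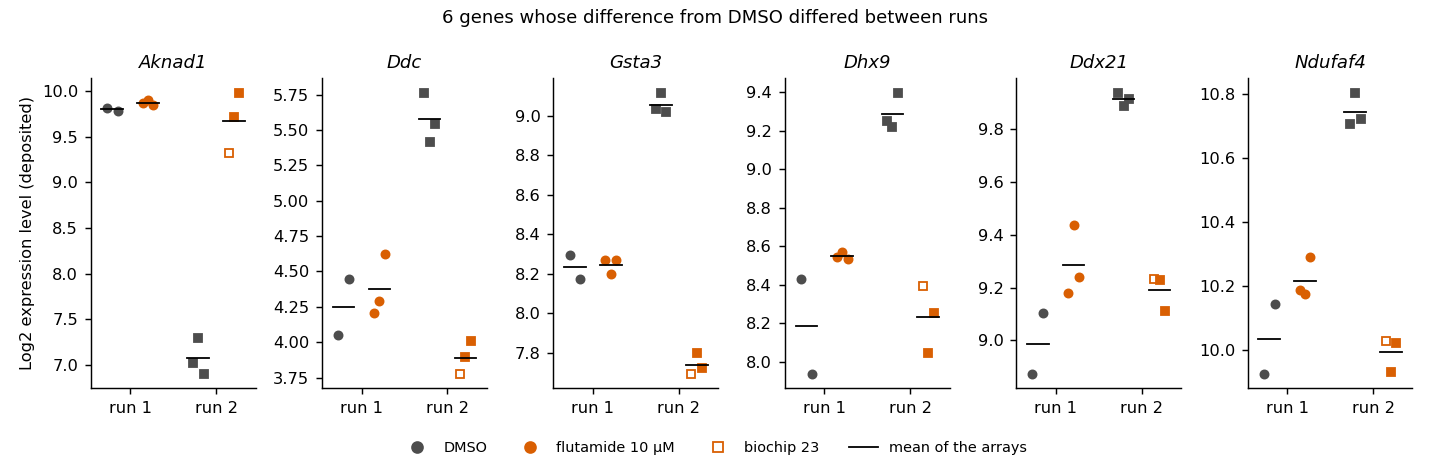
Deposited log2 levels of the 6 genes whose difference from DMSO differed between runs, each point 1 array, bars the mean of each group in each run; the vertical axes differ. In Aknad1 the 3 DMSO arrays of run 2 lie near 7 and all other arrays above 9.3, and in the other 5 genes the DMSO arrays of run 2 are the highest.

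Genes of protein synthesis, of ribosome biogenesis and of the proteasome, like several other lists, had median differences of opposite sign in the runs. Of 19 aminoacyl-tRNA synthetases 3 were lower in run 1 and 16 in run 2, with medians of 0.19 and -0.42. Of 39 ribosome biogenesis genes 14 and 36 were lower, with medians of 0.099 and -0.38, and of 36 proteasome genes 13 and 30, with medians of 0.032 and -0.20. The medians in run 2 without biochip 23 were -0.24 for the synthetases, -0.27 for ribosome biogenesis and -0.017 for the proteasome. Biochip 23 had the lowest mean of the 11 arrays for the synthetases (8.70) and for ribosome biogenesis (8.29). Without it the pooled medians went from -0.15 to -0.040, from -0.21 to -0.12 and from -0.075 to -0.0073. Other lists turned likewise. The run 1 and run 2 medians were 0.085 and -0.21 for the citric acid cycle and 0.12 and -0.045 for ER chaperones. Some dim lists turned the other way, -0.054 and 0.097 for stellate markers and -0.035 and 0.092 for 53 olfactory receptor genes. Without biochip 23 the run 2 medians were, in that order, -0.17, -0.12, 0.0021 and 0.046. These differences between the runs were not tested as groups.

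The 100 µM arrays shared the 5 DMSO arrays with the 10 µM comparison, so their values are set side by side without a test. The difference from DMSO at 10 and at 100 µM was 0.69 and 0.65 for Creb5, 0.59 and 0.51 for Fbxo3, -0.63 and -0.43 for Pop1, -0.92 and -0.87 for Tlr6, and -0.61 and -0.81 for Slco1b2. These 5 had similar values at both doses. Others had values nearer 0 at the higher dose: Ces2e (0.65 and 0.01), Ampd1 (1.14 and 0.34), Nr4a2 (0.81 and 0.22), Srxn1 (0.47 and 0.10) and Ccnb2 (0.45 and 0.02). Kynu (-0.88 and -1.50) and Gys2 (-0.48 and -1.13) were farther from 0 at 100 µM. List medians at 10 and 100 µM were -0.20 and -0.31 for fatty acid oxidation, -0.25 and -0.26 for bile acids, -0.12 and -0.25 for hepatocyte transcription factors, and 0.11 and 0.015 for plasma carriers.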

How the data were processed

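Gene expression was measured on 15 whole-transcript arrays of rat hepatocytes, 1 array a biochip. The authors deposited a table of log2 expression levels, for which the submitters' processing notes name RMA and Partek; neither version is stated in the sources used here. RMA quantile-normalizes arrays, so a shift of all genes at once would not be seen. Arrays have no read depth, and their number limits the precision. The deposited log2 levels had array medians of 5.38 to 5.51 and were not normalized again.

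Of 29214 probe sets, 15633 were in the platform annotation, 323 of them with several genes and 15310 with 1 symbol, of which 15279 were matched to RefSeq (GRCr8) by gene identifier to update names. Several probe sets stood for 527 genes, and the brightest by mean over the 15 arrays was kept, leaving 14506 genes. Columns of no sample numbered 0. Promoter sequences came from RefSeq, with an entry for 105 of the 135 genes named.

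Differences were fitted with limma 3.58.1 (R 4.3.3; lmFit, eBayes) on all 15 arrays with terms for group and run and 11 residual degrees of freedom, and adjusted by Benjamini-Hochberg over all genes. Each run was also fitted alone, and the difference between runs as an interaction. The fit was tested on simulated data. The 52 lists (1509 entries, 1328 measured), the members and the tests were chosen with earlier results of these data known. Named genes are the 8 of lowest p in each direction with the same sign in both runs, the 6 widest each way among genes apart after removal of the run effect, those called within a run (at most 8 a run), the 6 of lowest p for the run difference, each list's member of lowest p and up to 3 more at an unadjusted p under 0.05 with like signs in both runs, and, whatever their values, Cyp1a1, Cyp1a2, Cyp1b1, Nqo1, Tiparp, Hmox1, Cyp2b1, Cyp3a23-3a1, Cyp7a1, Ddit3, Atf3, Cdkn1a, Hspa5, Alb, Ccnd1, Fkbp5, Creb5, Fbxo3, Pop1, Serpina6, Cd36, Hgd, Fah, Hnf4a and Slco1b2. The rule gave 161 genes, and the text names a part of them. A further entry of the rule is not reported here. Alternatives were another normalization, array weights, no run term, other handling of dim genes and probe sets, and arrays left out.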

Additional observations from a re-analysis of the deposited data

Results flagged for a closer look

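Of 286 groups of 5 or 6 arrays examined, 19 held an array that lay far from the others of its group by Dixon's test at the 95% level, where chance flags about 1 in 20 groups. Biochip 23 accounted for 13 of the 19. Among the 6 flutamide arrays it was the lowest for Akr7a3 (7.01), Bax (7.79), Cyp1a1 (8.81), Fkbp4 (7.59), Hdhd3 (4.93) and Nqo1 (10.8), and the highest for Eci1 (9.70), P4hb (11.5) and Serpina1 (12.4). It was also the highest for the mean level of the Kupffer cell and macrophage markers (6.99), the stellate cell and fibroblast markers (5.25) and the endothelial markers (5.27), and the lowest for the median correlation with the other arrays (0.962). Biochip 24 was the lowest flutamide array for Cdkn1a (9.59) and the highest for Lrif1 (8.67). Biochip 12 was the lowest for Atf5 (7.97) and the highest for Surf1 (7.76). Among the DMSO arrays, biochip 21 was low for Cd27 (5.56) and biochip 22 high for Dhrs3 (6.77).

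The effect of 10 µM flutamide differed between the runs, by a test of the difference itself in limma, for 6 genes. The effect in run 2 less that in run 1 was 2.53 for Aknad1, -1.33 for Gsta3, -1.81 for Ddc, -1.02 for Ddx21, -1.43 for Dhx9 and -0.93 for Ndufaf4.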

How the results depend on the processing

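No gene was called over both runs under most alternatives. A single gene was called with renewed quantile normalization (1, Creb5), with array weights (1, Creb5), and with both weights and biochip 23 left out (1), and leaving out each array in turn gave 0 to 1 (S1pr2 without DMSO 11 and Tlr6 without DMSO 22). The genes at an unadjusted p under 0.05 ran from 810 to 1352 in such omissions, those higher from 425 to 649 and those lower from 361 (without DMSO biochip 20) to 753. Within run 2 the called count of 7 became 171 in the joint model of all arrays, 24 without biochip 23, and 0 to 95 over the omissions; that for the difference between runs ran from 2 to 116, and was 4 with 11 arrays. These last omissions, other than that of biochip 23, and the fit without arrays 15, 23 and 24, were chosen after seeing the data. A lone array left in an arm is assumed to vary like the others.

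Of 135 named genes, 129 kept their direction in all 19 alternatives run for each, or fewer where a filter removed the gene. Apart from those named whatever their values, the genes were picked by their values in these same data. Their kept direction was thus largely built in and is no further evidence. The other 6 turned, and all of these were among the genes named whatever their values. Over the arrays left out in turn, Ccnd1 ran from -0.19 to 0.015 (without DMSO 21), Cyp3a23-3a1 from -0.17 to 0.028 (0.027 without flutamide 12), Cyp1a1 from -0.48 to 0.15, Nqo1 from -0.14 to 0.16, Cyp7a1 from -0.19 to 0.19 (-0.0056 without 14) and Hmox1 from -0.087 to 0.42 (-0.054 without DMSO 22). With weights the last 4 gave 0.12, 0.15, -0.17 and -0.17, and without arrays 15, 23 and 24 they gave 0.20, 0.18, -0.25 and -0.35. Of the list medians, 966 values moved by less than the SD of single arrays about their group and run, and 22 moved by more. A difference fitted over many arrays shifts less than a single array does, so this criterion is loose and most omissions would meet it. The synthetases gave -0.010 with weights and 0.049 without arrays 15, 23 and 24. The cause was not tested. No paired analysis was possible because the groups compared share no replicate numbers. The number of arrays limits all of these values, and dim genes have no detection value.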
